A study of Drosophila melanogaster with 7 samples.

Results

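The 33 genes described here are those of 15551 fly genes in the deposited gene table whose symbol starts with Vha, the name of the genes for subunits of the vacuolar proton pump of Drosophila. They include 13 genes of the soluble sector V1, 18 genes of the membrane sector Vo and 2 genes of accessory proteins, for 15 kinds of subunit. They were taken by name alone, but earlier results of these data were known when this set was chosen. Each gene has a value in all 6 libraries.

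The vacuolar proton pump, or V-ATPase, uses ATP to move protons into lysosomes, endosomes and secretory and synaptic vesicles. ATP is split in V1, which turns a central stalk and with it a ring of proteolipid subunits in Vo, and protons cross the membrane where the ring meets subunit a. In neurons the proton gradient it builds is what the transporters that fill synaptic vesicles with transmitter exchange against. Several subunits of the fly pump are encoded by more than 1 gene, and such paralogs are known to differ in the tissues that use them.

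RNA was measured in adult flies by sequencing. In 3 groups a GAL4 line drove unc84-GFP, a green fluorescent tag on the nuclear membrane, and RNA was taken from the tagged nuclei of pooled frozen heads. OK107 drives it primarily in Kenyon cells, the principal neurons of the mushroom bodies, Tdc2 primarily in octopaminergic neurons, and R57C10 in all mature neurons. The fourth group was the whole dissected brain with all its cells, which was not taken from tagged nuclei. The groups of tagged nuclei were set apart by their driver. The labels allow other cells in OK107 and Tdc2 nuclei, and whole brain differs from the other groups in tissue, cells and preparation together. Markers of other cells also differed between the groups, as given below. The tables hold 2 OK107 libraries (a and b), 2 Tdc2 libraries (a and b), 1 R57C10 library and 1 whole brain library. Nothing in the sources used here says that the libraries of a pair came from separate flies, so p-values measure the spread between libraries, which may be technical.

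Levels are in FPKM, a measure of fragments that is divided by transcript length and library size, so they can be compared between genes. The depth estimated from the smallest steps in the values was 23.2 to 56.2 M reads a library, and 1 read on a transcript of 1 kilobase was then worth between 0.0178 and 0.043 FPKM. Over the Vha genes tested, the SD of the log2 difference within a pair was 0.11 in OK107 and 0.25 in Tdc2. The summed level of 5 Kenyon cell markers was 1258 and 1215 FPKM in OK107 and between 290.6 and 464.5 FPKM in the other libraries. The summed level of Tdc2 and Tbh, genes of octopamine synthesis, was 1778 and 2250 FPKM in Tdc2 and between 19.4 and 41.0 FPKM in the other libraries. A set of 3 of 5 neuronal markers had a value in every library, and these summed to between 1321 and 1934 FPKM, whole brain being lowest. Of these, para was lowest in whole brain, at 48.7 FPKM against between 222.8 and 547.5 FPKM elsewhere. The marker nSyb was not, at 1112 FPKM in whole brain, 976 and 934 FPKM in OK107 and 1096 FPKM in R57C10. Nor was elav, at 160.7 FPKM in whole brain and 153 FPKM in Tdc2 b. A number tag in the column names was shared by OK107 a, OK107 b and Tdc2 a, and another by Tdc2 b, R57C10 and whole brain. The deposited spike-in values were 0 in OK107 a and Tdc2 a.

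In V1 the catalytic head is made of subunits A and B. Vha68-1, the main gene of subunit A, was at 139 and 143 FPKM in OK107, 356 and 415 FPKM in Tdc2, 119 FPKM in R57C10 and 365 FPKM in whole brain. Its paralog Vha68-2 was at 20.4 and 21.9 FPKM in OK107, 77.4 and 76.4 FPKM in Tdc2, 9.56 FPKM in R57C10 and 108 FPKM in whole brain. Vha55, the only gene of subunit B, was at 261 and 255 FPKM in OK107, 523 and 455 FPKM in Tdc2, 222 FPKM in R57C10 and 808 FPKM in whole brain. All 3 genes of the head were thus lowest in R57C10 and higher in both Tdc2 libraries than in both OK107 libraries. In bulk RNA of this kind, fewer cells of a type and less RNA per cell cannot be told apart.

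Subunits D and F form the part of the stalk that turns. Vha36-1, of subunit D, was at 49.1 and 57.8 FPKM in OK107, 59.9 and 48.4 FPKM in Tdc2, 27.9 FPKM in R57C10 and 102 FPKM in whole brain. Vha14-1, of subunit F, was at 35.5 and 39.1 FPKM in OK107, 43.7 and 37.0 FPKM in Tdc2, 17.1 FPKM in R57C10 and 76.3 FPKM in whole brain. In both genes OK107 and Tdc2 overlapped, between the low R57C10 and the high whole brain library. Vha36-3, a weak second gene of subunit D, was at 1.10 and 1.43 FPKM in OK107, 1.78 and 2.54 FPKM in Tdc2, 1.55 FPKM in R57C10 and 3.01 FPKM in whole brain.

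Subunits E and G make up the outer stalks that hold the head in place, and C and H join them to the membrane sector or restrain the detached V1. Vha26, of subunit E, was at 454 and 469.9 FPKM in OK107, 852 and 999 FPKM in Tdc2, 512 FPKM in R57C10 and 1079 FPKM in whole brain, the second highest Vha gene in every library. Vha13, of subunit G, was at 71.3 and 66.0 FPKM in OK107, 84.5 and 68.8 FPKM in Tdc2, 33.5 FPKM in R57C10 and 187 FPKM in whole brain. The partners of the outer stalks therefore differed in pattern, since Vha26 stood higher in both Tdc2 libraries than in any other tagged library and Vha13 overlapped between OK107 and Tdc2. Vha44, of subunit C, was at 158 and 156 FPKM in OK107, 192 and 188 FPKM in Tdc2, 193 FPKM in R57C10 and 354 FPKM in whole brain. VhaSFD, of subunit H, was at 66.9 and 62.8 FPKM in OK107, 99.8 and 95.0 FPKM in Tdc2, 65.7 FPKM in R57C10 and 169 FPKM in whole brain. In R57C10 Vha44 was thus at the level of the Tdc2 libraries and VhaSFD at that of the OK107 libraries.

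In Vo, the ring is built from subunits c and c''. Vha16-1, of subunit c, was the highest Vha gene in every library, at 929 and 1026 FPKM in OK107, 1349 and 1565 FPKM in Tdc2, 905 FPKM in R57C10 and 1346 FPKM in whole brain. Among all fly genes it ranked 18 and 15 in OK107, 15 and 11 in Tdc2, 20 in R57C10 and 25 in whole brain. Vha16-4, a weak paralog, was at 3.16 and 2.95 FPKM in OK107, 2.31 and 2.42 FPKM in Tdc2, 1.78 FPKM in R57C10 and 0.550 FPKM in whole brain. VhaPPA1-1, of subunit c'', was at 132 and 139.7 FPKM in OK107, 144 and 143 FPKM in Tdc2, 87.2 FPKM in R57C10 and 126 FPKM in whole brain. Whole brain was lowest for Vha16-4, and R57C10 was lowest for both major ring genes.

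Subunit a carries the path of the protons, and subunit d links the ring to the stalk that turns. Vha100-1, the gene of subunit a known for its role at fly synapses, was at 224 and 241 FPKM in OK107, 163 and 158 FPKM in Tdc2, 170.4 FPKM in R57C10 and 127 FPKM in whole brain. Of the 18 genes with a mean of at least 10 FPKM, it and, by a narrow margin, VhaM9.7-c were lowest in whole brain. Vha100-2 was at 6.87 and 7.36 FPKM in OK107, 8.38 and 11.4 FPKM in Tdc2, 2.48 FPKM in R57C10 and 9.86 FPKM in whole brain. Vha100-3 was at 1.33 and 1.79 FPKM in OK107, 0.661 and 1.24 FPKM in Tdc2, 3.54 FPKM in R57C10 and 0.256 FPKM in whole brain. These paralogs of subunit a had opposite orders, with R57C10 lowest for Vha100-2 and highest for Vha100-3. VhaAC39-1, of subunit d, was at 80.3 and 80.3 FPKM in OK107, 106 and 103 FPKM in Tdc2, 67.7 FPKM in R57C10 and 248 FPKM in whole brain.

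Subunit e is a small membrane protein, and 3 of its 4 genes were present at more than 1 FPKM. VhaM9.7-a was at 67.9 and 69.9 FPKM in OK107, 83.9 and 56.7 FPKM in Tdc2, 55.4 FPKM in R57C10 and 83.7 FPKM in whole brain. VhaM9.7-b was at 25.0 and 25.9 FPKM in OK107, 18.0 and 19.5 FPKM in Tdc2, 17.5 FPKM in R57C10 and 38.8 FPKM in whole brain. VhaM9.7-c was at 15.3 and 15.9 FPKM in OK107, 7.61 and 9.27 FPKM in Tdc2, 12.3 FPKM in R57C10 and 7.60 FPKM in whole brain. The Tdc2 libraries of VhaM9.7-a spanned nearly the whole range of the gene, while VhaM9.7-b and VhaM9.7-c were higher in both OK107 libraries than in both Tdc2 libraries. Among the accessory genes, VhaAC45, whose product helps assemble and steer the pump, was at 66.0 and 78.0 FPKM in OK107, 203 and 212 FPKM in Tdc2, 75.7 FPKM in R57C10 and 79.6 FPKM in whole brain. VhaM8.9, now named ATP6AP2 and in mammals the (pro)renin receptor, was at 86.4 and 86.4 FPKM in OK107, 102 and 115 FPKM in Tdc2, 70.0 FPKM in R57C10 and 96.7 FPKM in whole brain. VhaAC45 thus stood apart in Tdc2, while VhaM8.9 kept between 70.0 and 115 FPKM in all libraries.

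The other 11 genes stayed under 1 FPKM in every library, and 9 of them never reached 0.2 FPKM. They were Vha100-4 and Vha100-5 (subunit a), Vha16-2, Vha16-3 and Vha16-5 (subunit c), Vha36-2 (subunit D), Vha68-3 (subunit A), VhaAC39-2 (subunit d), VhaM9.7-d (subunit e), VhaPPA1-2 (subunit c'') and Vha14-2 (subunit F). The highest was Vha14-2 with 0.694 FPKM in R57C10, and Vha16-5 was listed at 0 in all 6 libraries. Each is a paralog of a gene that was higher in every library. Of the 18 genes with a mean of at least 10 FPKM, 10 were highest in whole brain and 12 were lowest in R57C10.

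**Figure D1:**
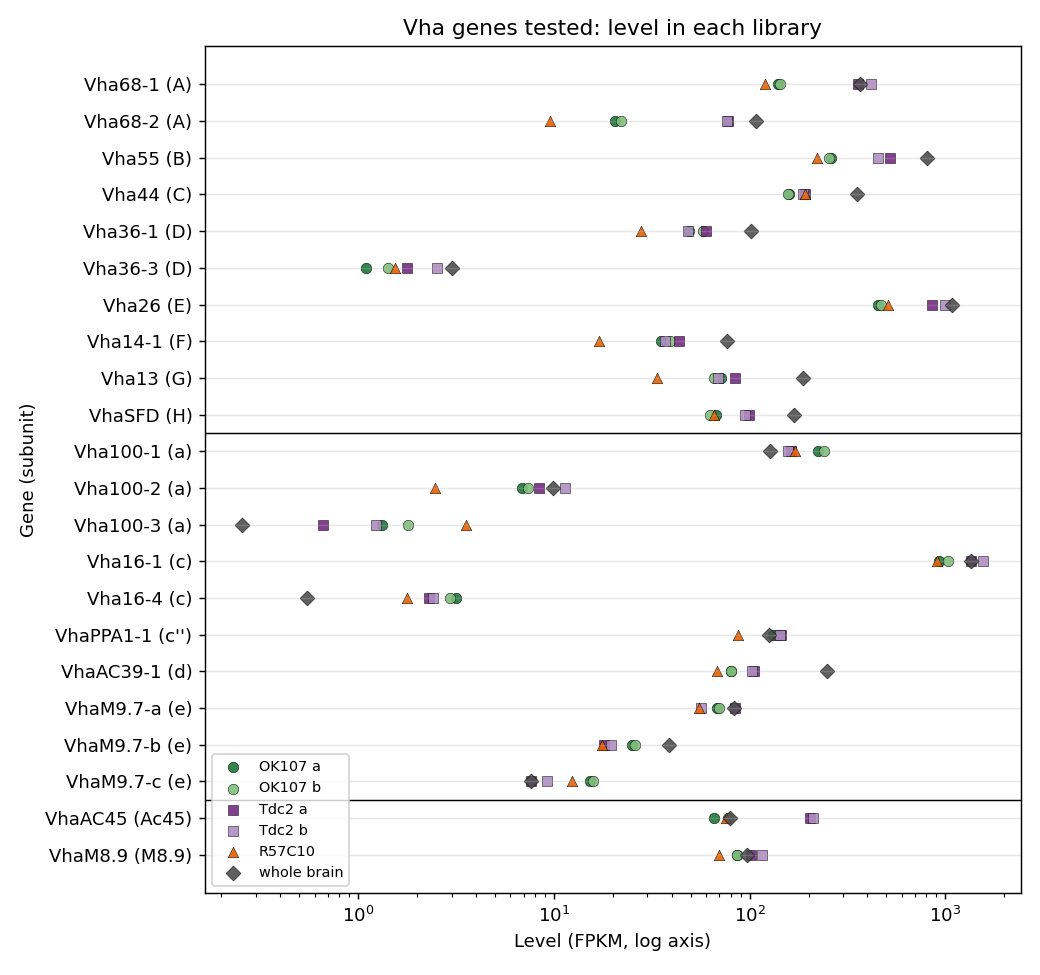
Level (FPKM, log axis) of the 22 Vha genes tested in each of the 6 libraries, 1 symbol a library, with genes of V1 above, Vo in the middle and accessory genes below. The R57C10 triangle is leftmost for most genes of V1, Vha100-1, Vha100-3, Vha16-4 and VhaM9.7-c have the whole brain diamond leftmost, and VhaAC45 has both Tdc2 squares to the right of all others.

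Differences between groups were tested with limma on log2(FPKM + 1) over all genes that reached 1 FPKM in 2 or more of the libraries fitted, which kept 22 of the 33 Vha genes. A gene passed at a Benjamini-Hochberg adjusted p under 0.05, and all differences below are on the log2(FPKM + 1) scale, which understates those of genes at a low level. The spread comes from the OK107 and Tdc2 pairs alone, with 2 residual degrees of freedom, and R57C10 and whole brain were assumed to vary like these pairs. OK107 and Tdc2 were both set against the same R57C10 library, and all 3 groups of tagged nuclei against the same whole brain library, so these comparisons are not independent.

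In Tdc2 over R57C10, 14 of the 22 Vha genes rose, 1 fell and 7 did not pass, where 35.9% of all 9585 genes tested passed, 20.6% rising and 15.2% falling. The median difference was 0.65 over the Vha genes and 0.03 over all genes tested, and 18 of the 22 lay above the median of all genes. Both main genes of subunit A were among those that rose. Vha68-2 rose by 2.88 (SE 0.12, adjusted p = 0.00106) and Vha68-1 by 1.68 (SE 0.14, adjusted p = 0.00237). Vha100-2 rose by 1.63, VhaAC45 by 1.44, Vha14-1 by 1.19, Vha13 by 1.16 and Vha55 by 1.14, with adjusted p between 0.00328 and 0.00709. Vha36-1, Vha26, VhaPPA1-1, Vha16-1, VhaM8.9, VhaAC39-1 and VhaSFD rose by between 0.56 and 0.92. Vha100-3 was the one that fell, by 1.24 (SE 0.25, adjusted p = 0.0182). Vha44 had a difference of -0.02 (SE 0.11, adjusted p = 0.898) and Vha100-1 one of -0.09 (SE 0.12, adjusted p = 0.582). Among genes that did not pass were also the 3 tested genes of subunit e.

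The split changed little with the scaling, with 13 genes higher and 2 lower under median centring and under quantile normalization, VhaM9.7-c being the added lower gene with a difference of -0.65 and -0.60. VhaSFD (0.41, adjusted p = 0.0557) did not pass under centring, and Vha16-1 (0.31, adjusted p = 0.159) did not pass under quantile normalization. Of all genes tested, 1786 of 4058 calls were higher under median centring, against 1979 of 3437 without it. Under quantile normalization 1631 of 3604 were higher. Without either OK107 library, 5 of the genes that rose no longer passed: VhaSFD, VhaAC39-1, Vha16-1, VhaPPA1-1 and VhaM8.9, with adjusted p between 0.0512 and 0.103. The count of calls over all genes fell too when either OK107 library was left out. Within their shared number tag, Tdc2 b alone was above R57C10 in 18 of the 22 Vha genes, with a median difference of 0.71. The median over all genes was 0.01 for this pair. Markers of other cells moved with this comparison. The summed level of the 5 of 6 glial markers with a value in every library was 340.1 and 375.5 FPKM in Tdc2 and 57.4 FPKM in R57C10, that of 5 photoreceptor markers was 5266 and 4589 FPKM in Tdc2 and 673 FPKM in R57C10, and that of 6 fat body markers was 6521 and 5774 FPKM in Tdc2 and 461 FPKM in R57C10. The sixth glial marker, Eaat1, had no value in OK107 a and is in no sum, and it ran the other way, at 39.3 and 61.9 FPKM in Tdc2 and 67.4 FPKM in R57C10. Sums of 5 muscle markers were 107 and 254 FPKM in Tdc2 and 37.4 FPKM in R57C10, and those of 4 hemocyte markers were 27.5 and 32.2 FPKM in Tdc2 and 10.0 FPKM in R57C10. None of these markers was at 0, and their part in the result was not tested.

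In OK107 over R57C10, 8 of the 22 Vha genes rose, none fell and 14 did not pass, where 24.9% of all genes tested passed, 21.4% rising and 3.56% falling. The median difference was 0.31 over the Vha genes and 0.30 over all genes. Under quantile normalization these medians were 0.19 and -0.05, and with the number tag as a term 0.43 and 0.32. Vha68-2 rose by 1.07 (SE 0.12, adjusted p = 0.00686), Vha100-2 by 1.22, Vha14-1 by 1.08, Vha13 by 1.01, Vha36-1 by 0.91, VhaPPA1-1 by 0.63, VhaM9.7-b by 0.51 and Vha100-1 by 0.44 (SE 0.12, adjusted p = 0.0485). Vha55, with a difference of 0.22, and Vha68-1, with one of 0.24, did not pass. With each library centred on the median of its genes, the median difference of all genes moved to -0.15. Then 3 Vha genes were higher (Vha68-2, Vha100-2 and Vha14-1) and 4 were lower (Vha100-3, Vha44, Vha26 and VhaAC45), and of all genes tested 792 of 2354 calls were higher, against 2047 of 2388 without centring. Quantile normalization gave 4 higher (Vha68-2, Vha13, Vha14-1 and VhaPPA1-1) and 1 lower (Vha100-3). Of all genes tested, 759 of 1422 calls were then higher. The count rested on single libraries too. It was 1 without OK107 a, namely Vha68-2 (adjusted p = 0.0475), and 0 without OK107 b, where 7 had an unadjusted p under 0.05 in limma. It was 17 without Tdc2 a, without Tdc2 b or without both. No OK107 library shares a number tag with R57C10 or whole brain, so no value within a tag could be had, and a fit with the tag as a term gave 11 higher and 1 lower, Vha44. Of all genes tested, 3061 of 3548 calls were higher in that fit. Only Tdc2 has libraries of both tags, so the term rests on the difference of Tdc2 a and Tdc2 b. The spread of that fit then comes from the OK107 pair alone. Sums of the same 5 glial markers were 134.5 and 140 FPKM in OK107 and 57.4 FPKM in R57C10, and photoreceptor sums were 1168 and 1159 FPKM in OK107 and 673 FPKM in R57C10. Muscle sums were 67.8 and 68.8 FPKM in OK107 and 37.4 FPKM in R57C10. The other way ran Eaat1, at 27.7 FPKM in OK107 b and 67.4 FPKM in R57C10, and the fat body sums, at 127 and 124 FPKM in OK107 and 461 FPKM in R57C10. So did the photoreceptor marker norpA, at 142 and 142 FPKM in OK107 and 156 FPKM in R57C10. Hemocyte sums were 10.96 and 10.7 FPKM in OK107 and 10.0 FPKM in R57C10. Their part in the result was not tested.

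In OK107 over Tdc2, 3 of the 22 Vha genes were higher, 8 lower and 11 did not pass, where 48.3% of all genes tested passed, 34.3% higher and 14% lower. The median difference was -0.30 over the Vha genes and 0.28 over all genes, and 4 of the 22 lay above the median of all genes. Vha68-2 was lower by a log2 difference of -1.81 (SE 0.10, adjusted p = 0.000848), VhaAC45 by -1.52 (SE 0.12, adjusted p = 0.00155) and Vha68-1 by -1.44 (SE 0.11, adjusted p = 0.00160). Vha26 (-0.997), Vha55 (-0.92), VhaSFD (-0.58), Vha16-1 (-0.57) and VhaAC39-1 (-0.38) were lower too. The genes that were higher in OK107 were VhaM9.7-c (0.82), Vha100-1 (0.53) and VhaM9.7-b (0.42), all of the membrane sector. Genes of the turning stalk did not pass, with Vha36-1 at -0.02 (SE 0.15) and Vha14-1 at -0.11 (SE 0.12).

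Under median centring 1 gene was higher (VhaM9.7-c) and 13 were lower, and under quantile normalization 2 and 11. VhaM9.7-b did not pass under either, and Vha16-1 (-0.20, adjusted p = 0.254) did not under quantile normalization. The difference of Vha100-1 was 0.24 (adjusted p = 0.120) with centring, and of all genes tested 1362 of 3435 calls were then higher, against 3290 of 4631 without it. Under quantile normalization 1809 of 3581 were higher. Without either OK107 library only 5 of the 11 passed, all lower (Vha68-2, VhaAC45, Vha68-1, Vha26 and Vha55). Over all genes the calls then numbered 1311 without OK107 a and 1331 without OK107 b, of which 745 and 723 were higher. The difference of Vha100-1 was then between 0.48 and 0.59, with adjusted p between 0.107 and 0.165, and that of VhaM9.7-c between 0.80 and 0.84, with adjusted p between 0.0774 and 0.0897. Within their shared number tag, OK107 a and OK107 b were each above Tdc2 a in 5 of the 22 Vha genes, with median differences of -0.29 and -0.24. The medians over all genes were 0.27 and 0.31 for these pairs. Glial marker sums were 134.5 and 140 FPKM in OK107 and 340.1 and 375.5 FPKM in Tdc2, and the photoreceptor, fat body, muscle and hemocyte sums given above were also lower in OK107. Their part in the result was not tested.

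Against whole brain, R57C10 had 4 Vha genes higher, 15 lower and 3 that did not pass, where 55.1% of all 9605 genes tested passed, 22.3% higher and 32.8% lower. The median difference was -0.97 over the Vha genes and -0.22 over all genes. All 9 genes of V1 with a mean of at least 10 FPKM were lower, and the largest difference was that of Vha68-2, at -3.36 (SE 0.13, adjusted p = 0.000318). Vha13 was lower by -2.44, Vha14-1 by -2.10, Vha55 by -1.86, Vha36-1 by -1.83, Vha68-1 by -1.60, VhaSFD by -1.35, Vha26 by -1.07 and Vha44 by -0.87. In Vo, VhaAC39-1 was lower by -1.86, Vha100-2 by -1.64 and VhaM9.7-b by -1.10. Vha16-1 and VhaPPA1-1 of the ring and the accessory gene VhaM8.9 were lower by between -0.57 and -0.46. The genes that were higher in R57C10 were all of Vo: Vha100-3 (1.86, SE 0.29, adjusted p = 0.00566), Vha16-4 (0.84), VhaM9.7-c (0.63) and Vha100-1 (0.42, SE 0.13, adjusted p = 0.0457). VhaAC45 had a difference of -0.07 (SE 0.16, adjusted p = 0.730).

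Some of the smaller calls depended on the settings. Quantile normalization turned Vha16-1 to 0.16 (adjusted p = 0.474), and under it Vha26 (-0.39, adjusted p = 0.0708), VhaM8.9 and VhaPPA1-1 did not pass. Vha16-1, VhaM8.9 and VhaPPA1-1 did not pass under median centring. Of all genes tested, 3078 of 5146 calls were higher under median centring, against 2140 of 5295 without it. Both libraries carry the same number tag. Without either OK107 library, Vha100-1, Vha16-1, Vha16-4, VhaM8.9, VhaM9.7-c and VhaPPA1-1 no longer passed, with adjusted p between 0.0737 and 0.204. Only 1 of the 4 higher genes, Vha100-3, then remained a call. Calls over all genes were fewer too without either OK107 library. Glia are part of whole brain, and the summed glial markers were 57.4 FPKM in R57C10 and 1790 FPKM in whole brain. The fat body sums were 461 FPKM in R57C10 and 4522 FPKM in whole brain, and the hemocyte and muscle sums were lower in R57C10 too (10.0 and 37.4 FPKM in R57C10, 61.5 and 57.7 FPKM in whole brain). Photoreceptor sums ran the other way, at 673 FPKM in R57C10 and 424 FPKM in whole brain. Among these markers norpA was lower in R57C10, at 156 FPKM, than in whole brain, at 198 FPKM. None of the glial markers was at 0 in R57C10, where repo was at 1.57 FPKM, and their part in the result was not tested. Nuclear RNA of heads and RNA of dissected brain cannot be told apart here from the difference in cells.

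In OK107 over whole brain 4 Vha genes were higher, 13 lower and 5 did not pass, where 53.5% of all genes tested passed, 31.5% higher and 22% lower, and the median difference was -0.71 over the Vha genes and 0.10 over all genes. Vha68-2 (-2.29), Vha55 (-1.64) and VhaAC39-1 (-1.62) had the largest differences, with adjusted p between 0.000415 and 0.000966. Vha16-4 (1.39), Vha100-3 (1.02), VhaM9.7-c (0.95) and Vha100-1 (0.86, SE 0.12, adjusted p = 0.00331) were higher. Vha16-1 was lower by -0.46 (adjusted p = 0.0475), and quantile normalization turned this to 0.28 (adjusted p = 0.177). Vha100-3 was at 0.33 (adjusted p = 0.239) under quantile normalization. With the number tag as a term Vha16-1 (-0.25, adjusted p = 0.122) and Vha36-3 (-0.48, adjusted p = 0.119) did not pass, and OK107 and whole brain share no tag. The term again rests on the difference of Tdc2 a and Tdc2 b. Without OK107 a or b, Vha16-1, Vha36-3, VhaM9.7-b and VhaM9.7-c did not pass (adjusted p between 0.0505 and 0.300), nor did Vha36-1 without a (0.0596) or Vha100-3 without b (0.106). Fewer genes passed over all genes as well without OK107 a or b. The glial sums were 134.5 and 140 FPKM in OK107 and 1790 FPKM in whole brain, the fat body sums 127 and 124 FPKM in OK107 and 4522 FPKM in whole brain, and the hemocyte sums 10.96 and 10.7 FPKM in OK107 and 61.5 FPKM in whole brain. Photoreceptor sums ran the other way, at 1168 and 1159 FPKM in OK107 and 424 FPKM in whole brain, as did muscle sums, at 67.8 and 68.8 FPKM in OK107 and 57.7 FPKM in whole brain. Single markers of these sums were lower in OK107, namely norpA of photoreceptors and wupA and Act88F of muscle. Of these norpA was at 142 and 142 FPKM in OK107 and 198 FPKM in whole brain. The part of all these markers in the result was not tested.

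In Tdc2 over whole brain 2 Vha genes were higher, 9 lower and 11 did not pass, where 50.3% of all genes tested passed, 21.2% higher and 29.1% lower, and the median difference was -0.25 over the Vha genes and -0.15 over all genes. VhaAC45 (1.37, SE 0.14, adjusted p = 0.00282) and Vha16-4 (1.12, SE 0.16, adjusted p = 0.00581) were higher. Vha13 (-1.28), VhaAC39-1 (-1.24) and VhaM9.7-b (-1.01) had the largest lower differences. Vha14-1, Vha36-1, Vha44, VhaSFD, Vha55 and Vha68-2 were lower by between -0.91 and -0.48. Vha68-1, which rose over R57C10, had a difference of 0.08 (SE 0.14, adjusted p = 0.663) from whole brain. Vha68-2 did not pass without either OK107 library (adjusted p = 0.115 each), and the split was 5 higher and 8 lower under median centring and 5 and 6 under quantile normalization. Vha68-2 did not pass under either scaling, and Vha36-1 and Vha55 did not under quantile normalization (adjusted p = 0.0586 and 0.270). Of all genes tested, 2742 of 4685 calls were higher under centring, against 2041 of 4835 without it. Under quantile normalization 1959 of 3939 were higher. The added higher calls of Vha genes under both scalings were Vha100-1 and VhaPPA1-1, at between 0.38 and 0.68. Tdc2 b, which shares its tag with whole brain, was above it in 10 of the 22 Vha genes, with a median difference of -0.15. The median over all genes was nearly the same for this pair, at -0.14. The glial sums were 340.1 and 375.5 FPKM in Tdc2 and 1790 FPKM in whole brain, and the hemocyte sums 27.5 and 32.2 FPKM in Tdc2 and 61.5 FPKM in whole brain. Of the hemocyte markers, vkg was at 5.83 and 10.2 FPKM in Tdc2 and 39.9 FPKM in whole brain. Ppn was higher in Tdc2, at 12.9 and 14.0 FPKM against 11.2 FPKM in whole brain. Other sums were higher in Tdc2. They were 5266 and 4589 FPKM in Tdc2 and 424 FPKM in whole brain for photoreceptors, 107 and 254 FPKM in Tdc2 and 57.7 FPKM in whole brain for muscle, and 6521 and 5774 FPKM in Tdc2 and 4522 FPKM in whole brain for fat body. Yp1 was the largest part of the fat body sum, at 4104 and 3428 FPKM in Tdc2 and 2113 FPKM in whole brain. Yp3 was higher in Tdc2 too, and Yp2 lay on both sides of whole brain. By contrast apolpp was lower, at 476 and 450 FPKM in Tdc2 and 633 FPKM in whole brain. Lsp2 was lower at 1.57 and 5.03 FPKM in Tdc2 and 40.8 FPKM in whole brain, as was Fbp1 at a low level. The part of all these markers in the result was not tested.

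**Figure D2:**
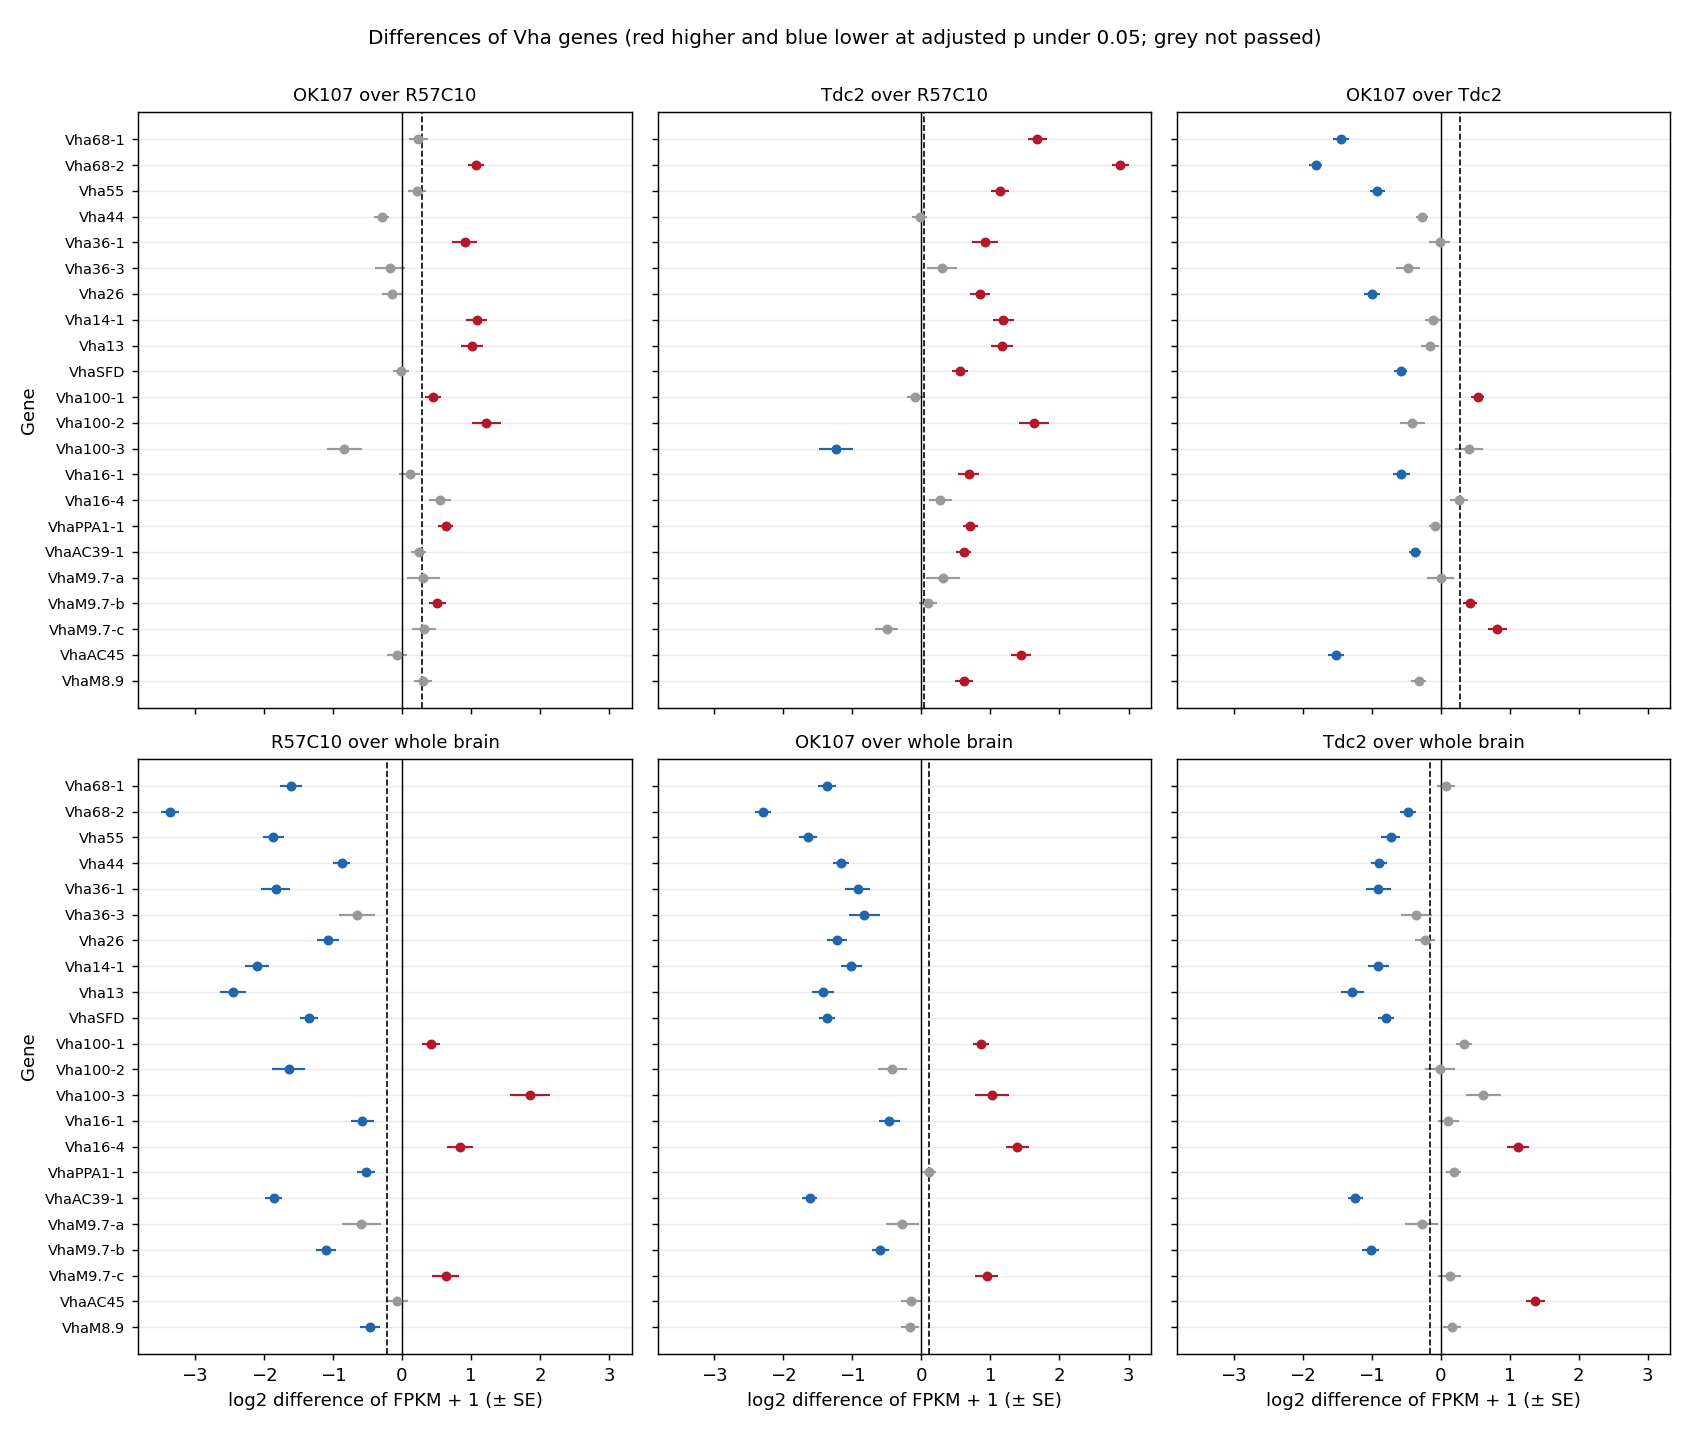
Differences of the 22 Vha genes tested in 6 comparisons on the log2(FPKM + 1) scale, with SE as bars, where red is higher and blue lower in the first named group at an adjusted p under 0.05, and the dashed line is the median of all genes tested. In Tdc2 over R57C10 14 genes lie to the right in red, and in R57C10 over whole brain 15 lie to the left in blue.

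The share of a subunit's summed FPKM that comes from a minor paralog is a ratio within a library, which a scale factor for the library cannot move. Vha68-2 gave 12.8% and 13.3% of subunit A in OK107, 17.9% and 15.6% in Tdc2, 7.42% in R57C10 and 22.8% in whole brain. Its share was lowest in R57C10, and both Tdc2 libraries were above both OK107 libraries. Vha100-2 gave 2.96% and 2.94% of subunit a in OK107, 4.88% and 6.67% in Tdc2, 1.404% in R57C10 and 7.19% in whole brain, the same order of groups as for Vha68-2. Vha100-3 gave 0.574% and 0.716% of subunit a in OK107, 0.385% and 0.726% in Tdc2, 2.01% in R57C10 and 0.186% in whole brain, where R57C10 stood highest. VhaM9.7-c gave 14.2% and 14.2% of subunit e in OK107, 6.94% and 10.8% in Tdc2, 14.5% in R57C10 and 5.84% in whole brain, and so set OK107 and R57C10 apart from Tdc2 and whole brain. Vha100-1 stayed between 92.5% and 96.6% of subunit a, Vha16-1 between 99.66% and 99.96% of subunit c and VhaAC39-1 between 99.91% and 100% of subunit d. These shares were not tested. Vha68-1, Vha68-2 and Vha68-3 lie near each other on chromosome arm 2L, with no more than 2 genes between any pair, and how the authors' estimates divided reads among similar copies is not given in the sources used here.

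**Figure D3:**
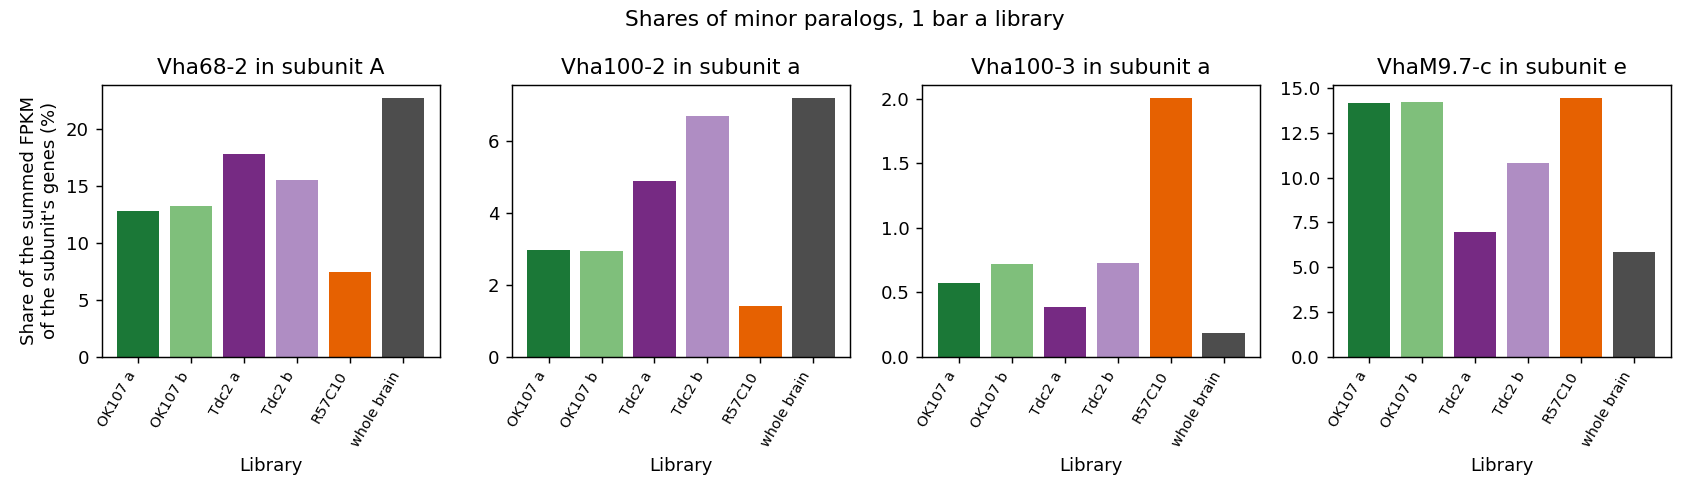
Share (%) of the summed FPKM of a subunit's genes that came from 4 minor paralogs, 1 bar a library, with a separate axis from 0 in each panel. Vha68-2 runs between 7.42% in R57C10 and 22.8% in whole brain, and Vha100-3 has its highest bar in R57C10, at 2.01%.

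Estimates for single isoforms, in the authors' isoform table, showed where groups differed within a gene; they are a description with no test. The isoform RA of Vha44 held 43.4% and 37.0% of the gene's FPKM in OK107, 45.9% and 35.3% in Tdc2, 20.2% in R57C10 and 88.2% in whole brain, while RF held 37.0% and 44.7% in OK107, 40.7% and 46.7% in Tdc2, 55.1% in R57C10 and 6.10% in whole brain. VhaSFD-RA held 72.4% and 63.6% in OK107, 84.9% and 64.7% in Tdc2, 56.1% in R57C10 and 92.5% in whole brain. Vha16-1-RA held 31.5% and 23.5% in OK107, 31.5% and 29.0% in Tdc2, 18.2% in R57C10 and 58.8% in whole brain, and Vha16-1-RD was the main isoform in the tagged groups, with 59.2% in R57C10 and 17.3% in whole brain. In each of the 3 genes the RA isoform had its lowest share in R57C10 and its highest in whole brain. In Vha100-1, RH and RI were the main isoforms in every library, and RC held 20.1% and 18.6% in OK107, 15.3% and 20.4% in Tdc2, 19.9% in R57C10 and 5.99% in whole brain. Libraries of a pair could differ widely in these estimates. Vha44-RE held 12.0% in OK107 a and 0.186% in OK107 b, and Vha68-2-RB held 32.7% in Tdc2 a and was listed at 0 in Tdc2 b. The isoforms of VhaM9.7-a that had a value made up between 24.1% and 31.0% of the gene, since 1 of its 3 isoforms had none.

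**Figure D4:**
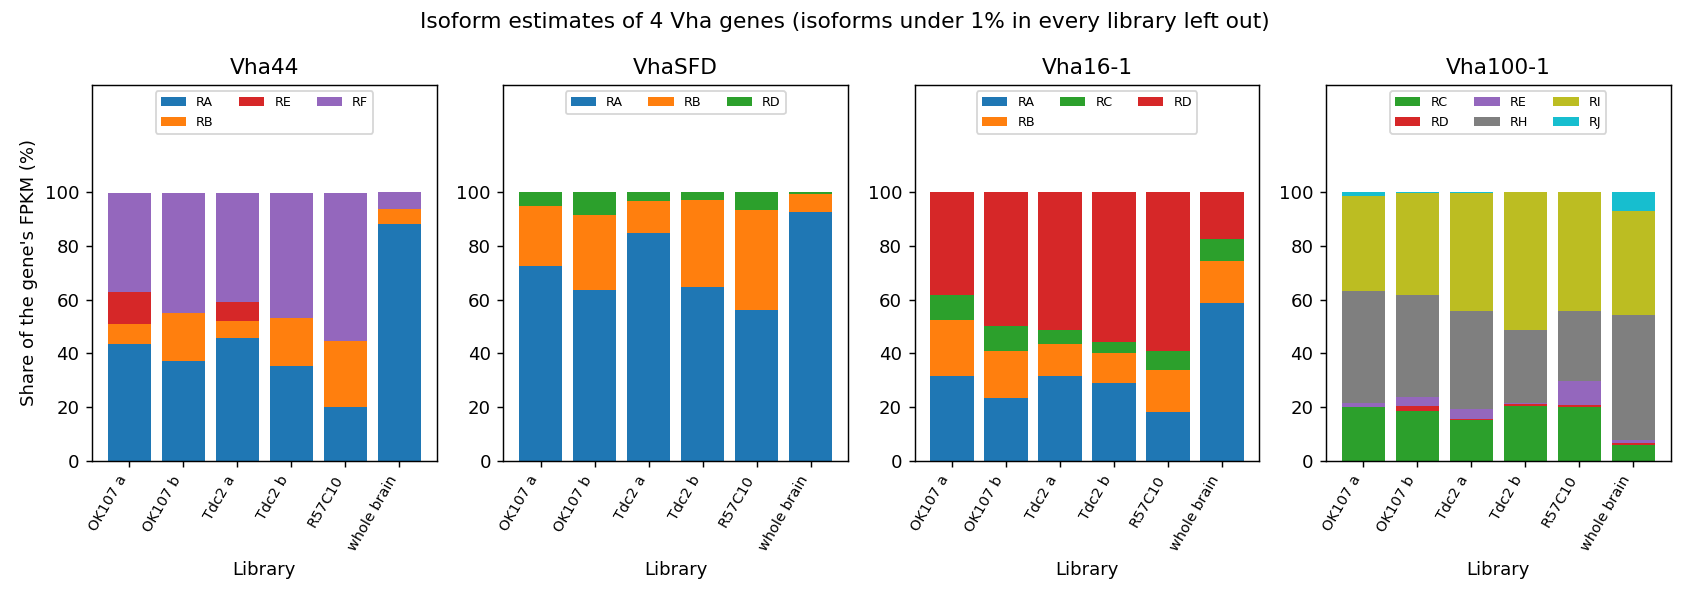
Share (%) of the gene's FPKM held by each isoform of Vha44, VhaSFD, Vha16-1 and Vha100-1, as stacked bars with 1 bar a library, leaving out isoforms under 1% in every library. The blue RA segment of Vha44 is 88.2% in whole brain and 20.2% in R57C10, and that of Vha16-1 is 58.8% in whole brain and 18.2% in R57C10.

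Other genes of the pathway were taken from lists. Of 5 genes of pump assembly and regulation outside the Vha names (Rbcn-3A, Rbcn-3B, l(3)82Fd, Mitf and CG31030), none passed in OK107 over R57C10, with 0 at an unadjusted p under 0.05 in limma, and 1 passed in Tdc2 over R57C10. That gene, l(3)82Fd, now mtd, fell by 0.67 (SE 0.15, adjusted p = 0.0232), with 525 and 627 FPKM in Tdc2 and 915 FPKM in R57C10. Mitf, a factor known in flies to drive Vha genes, had a difference of 0.12 (SE 0.20, adjusted p = 0.670) in OK107 over R57C10 and -0.02 (SE 0.20, adjusted p = 0.946) in Tdc2 over R57C10. Rbcn-3A, part of the complex that reassembles the pump, was higher by 0.33 (adjusted p = 0.0424) in OK107 over Tdc2, as was l(3)82Fd by 0.65. The median of all genes was 0.28 in this comparison. Rbcn-3B ran the other way, with a difference of -0.34 (SE 0.13, adjusted p = 0.0807), and did not pass. Over whole brain this list had 1 higher in R57C10, 2 higher and 1 lower in OK107, and 2 higher and 1 lower in Tdc2. No match was found for Vma21 and Vma12.

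Of the transporters that exchange transmitter against protons, 4 of 5 were tested, since Vmat had no value in Tdc2. In Tdc2 over R57C10 VAChT, for acetylcholine, fell by 2.50 (adjusted p = 0.00216), CG10251 (portabella) by 1.12 and VGAT, for GABA, by 0.87, and VGlut, for glutamate, rose by 0.84. In OK107 over R57C10 CG10251 rose by 2.30 and VAChT fell by 1.11, and VGAT and VGlut did not pass. In OK107 over Tdc2 3 were higher and 1 lower. Over whole brain 1 was higher and 1 lower in R57C10 and likewise in OK107, and 3 were lower in Tdc2.

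Of 16 lysosomal genes tested of 17 matched, 7 rose and none fell in Tdc2 over R57C10, with a median of 0.50, with the smallest p for CG6206 (1.91), CG31414 (1.28) and Npc2a (1.16). In OK107 over R57C10 7 rose and none fell, with a median of 0.54, with the smallest p for Lamp1, a lysosomal membrane protein (1.21), CG10992 (1.22) and CG6206 (0.79). In OK107 over Tdc2 5 were higher and 5 lower. Over whole brain 8 were lower in R57C10 and none higher, 3 lower and 1 higher in OK107, and 6 lower and none higher in Tdc2, Hexo2 having the largest difference in each (-4.52, -3.69 and -2.80). Tpp1 was not matched.

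The mitochondrial ATP synthase is the related pump that runs the other way, making ATP from a proton gradient. Of 13 of its genes tested of 15, 8 rose and none fell in Tdc2 over R57C10 (median 0.68) and 4 rose and none fell in OK107 over R57C10 (median 0.51). In OK107 over Tdc2 1 was higher and 4 lower (median -0.29). All 13 were lower in R57C10 over whole brain (median -2.04), 12 in OK107 over whole brain (median -1.61) and 12 in Tdc2 over whole brain (median -1.37). ATPsyn-beta, of its catalytic head, was at 312.5 and 311 FPKM in OK107, 398.5 and 365 FPKM in Tdc2, 194 FPKM in R57C10 and 1347 FPKM in whole brain. Its order of groups was that of Vha55. Each list's counts can be read against the shares of all genes given above for the same comparison, and whether any list differs from other genes was not tested.

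The authors' deposited table gives q-values for pairs of single libraries where they are under 0.05. It lists 2 Vha genes as higher in OK107 b than in R57C10, Vha68-2 (q = 0.0213) and Vha100-2 (q = 0.0282). A total of 6 are listed in the authors' deposited table as higher in Tdc2 b than in R57C10, with Vha68-2 at q = 7.33e-07, VhaAC45 at 1.78e-05, Vha100-2 at 0.000544, Vha55 at 0.00216, Vha68-1 at 0.00974 and Vha16-1 at 0.0450. In the authors' deposited table Tdc2 a is above OK107 a for VhaAC45 (q = 1.62e-06), Vha68-2 (q = 0.000143) and Vha55 (q = 0.00413). For R57C10 against whole brain the authors' deposited table has Vha100-3 as higher in R57C10 (q = 0.00497) and Vha68-2 (q = 0.000403), Vha55 (q = 0.0122) and Vha13 (q = 0.0328) as lower in R57C10. Vha68-2 was thus the only Vha gene listed in all 4 of these pairs.

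Some Vha genes overlap others in the current annotation, and the strand used in counting is not given in the sources used here, so their reads cannot be told apart. Vha100-3 overlaps sano, which was at 11.7 and 11.3 FPKM in OK107, 17.2 and 18.3 FPKM in Tdc2, 28.0 FPKM in R57C10 and 27.8 FPKM in whole brain. Sano was about as high in whole brain, where Vha100-3 was lowest, as in R57C10, where Vha100-3 was highest. The part of sano reads in the values of Vha100-3 was not tested. VhaM9.7-c overlaps Teh2, which was at 192 and 199 FPKM in OK107, 188 and 198 FPKM in Tdc2, 384 FPKM in R57C10 and 207 FPKM in whole brain, far above VhaM9.7-c itself. Vha44 overlaps Hmgs, which was between 11.7 and 18.5 FPKM, and Vha100-1 overlaps Alg13, between 1.75 and 7.03 FPKM, both low beside the Vha gene. Vha100-2 overlaps Vti1b, and its neighbour on 3R is Vha100-4.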

How the data were processed

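Nuclear RNA of OK107, Tdc2 and R57C10 nuclei and RNA of whole brain was made into cDNA with a NuGEN Ovation kit and read on an Illumina HiSeq, per the labels' protocols. The submitters' processing notes name CASAVA 1.8, TopHat 1.4.0, Cuffdiff 1.3.0, bedtools 2.15 and genome build dm3. The FPKM of genes and isoforms are estimates the authors made with Cuffdiff, listed as NA where that program did not report an OK status, per the file headers. The q-values (adjusted p-values) for pairs of libraries were deposited by the authors where under 0.05, per the file headers. The tables hold 6 libraries for 7 labelled samples, with 1 of 2 R57C10 samples. The columns carry no replicate numbers, and a and b are names only.

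From these, limma 3.58.1 in R 4.3.3 (eBayes with trend and robust) was run on log2(FPKM + 1) over all genes that reached 1 FPKM in 2 or more libraries and had a value in every library fitted. The 3 comparisons among tagged nuclei used 5 libraries and those with whole brain 6. P-values were adjusted over all genes tested by Benjamini-Hochberg, with a threshold of 0.05. The script was tested on simulated data. Depth was estimated from steps between low FPKM values of 5619 genes, as the best of many depths tried. At that depth between 60.2% and 66.7% of values lay within 0.2 of a whole read, too few to recover counts. By chance 40% would do so at 1 depth fixed beforehand, and the level for the best of many was not computed. Genes named with values in every library are those with a mean of at least 10 FPKM or a call in at least 1 comparison, and up to 3 genes of each other list and comparison by smallest p; overlapping genes and a few genes that did not pass were named after their values were seen. The members and lists were chosen with earlier results of these data known. Symbols were matched by CG number to RefSeq names of Release 6, so no dm3 coordinates are given. Sequences and promoter motifs were not analysed here. Alternatives were other scalings, pseudocounts (0.1 and 5), filters, the number tag as a term, and leaving out libraries.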

Additional observations from a re-analysis of the deposited data

How the results depend on the processing

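Of 81 called differences of Vha genes under 928 combinations of difference and setting, 828 kept their call, 97 lost it with the same direction and 3 reversed. This tally covers calls of the main fit only. Calls that a setting added are not in it, and no such tally was made over all genes. Median centring turned Vha100-1 in OK107 over R57C10 to -0.0027, and it shifts every gene of a comparison by the same amount. Quantile normalization turned Vha16-1 to 0.16 in R57C10 over whole brain and to 0.28 in OK107 over whole brain, and the cause was not tested. Median centring moved the median difference of all genes to -0.15 in OK107 over R57C10, against 0.30 uncentred, to -0.12 against 0.03 in Tdc2 over R57C10, to -0.01 against 0.28 in OK107 over Tdc2, to 0.12 against -0.22 in R57C10 over whole brain, to -0.01 against 0.10 in OK107 over whole brain and to 0.04 against -0.15 in Tdc2 over whole brain. The count of Vha genes that passed in OK107 over R57C10 was 8, 5 under quantile normalization, and 17 without both Tdc2 libraries, an alternative chosen after seeing the data. Leaving out each replicate gave between 0 and 17 for OK107 over R57C10 and between 5 and 16 for OK107 over Tdc2. It gave between 10 and 17 for Tdc2 over R57C10, 13 and 21 for R57C10 over whole brain, 12 and 19 for OK107 over whole brain and 10 and 15 for Tdc2 over whole brain. Over all genes, the count in OK107 over R57C10 was 2388, and it was 544 without OK107 a, 481 without OK107 b, 5706 without Tdc2 a and 5712 without Tdc2 b. In the other comparisons too, the count over all genes fell without either OK107 library and rose without either Tdc2 library. The Vha counts did likewise. When a replicate is left out, the spread rests on the remaining pair, and the lone library is assumed to vary like it. Scaling each library by its upper quartile moved the median level of the 18 major Vha genes to 114.5 FPKM in Tdc2 a, against 103.6 FPKM unscaled, to 121 against 109 FPKM in Tdc2 b, to 71.7 against 68.8 FPKM in R57C10, and to 107 against 126 FPKM in whole brain, so that Tdc2 and not whole brain was then highest. No paired analysis was possible because the columns carry no replicate numbers. At these depths the genes listed at 0 may have been missed, and no interval can be given without counts.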
